A study of Mus musculus with 18 samples.

Results

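Ephrins, Eph receptors and connexins were followed as 10 genes through endothelial cells of a mouse breast cancer model and through the tumour cells themselves. The genes were taken from a fixed list of names: the ephrin ligands Efnb2, Efnb1 and Efna1, the Eph receptors Ephb4, Epha2 and Epha4, the connexins Gja1, Gja4 and Gja5, and the kinase gene Bmx. Each matched 1 line of the endothelial table, which has 55401 gene lines, and 1 line of the tumour cell table, which has 22612. RNA was sequenced from 18 libraries in 6 groups of 3.

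The 12 endothelial libraries came from wild-type female C57BL/6 mice obtained at 5 to 6 weeks of age, with EO771 breast cancer cells implanted in the mammary fat pad in the tumour groups. Cells negative for CD45 and high for CD31 were sorted. Those carrying peripheral node addressin (PNAd), the sugar epitope of high endothelium, were taken from inguinal lymph nodes as high endothelial cells (HECs), and those without it as blood endothelial cells (BECs). BEC normal came from the fat pad of mice without tumours, BEC tumour from the EO771 tumours, HEC normal from nodes of mice without tumours, and HEC tumour from nodes of tumour bearers, a tissue that the labels name lymph node metastases. HECs and BECs therefore differ in organ as well as in cell type, and the 2 cannot be told apart. BEC tumour and BEC normal likewise differ in tissue, tumour against fat pad, which cannot be told apart from an effect of the tumour. EO771 cells in culture gave the other 6 libraries, after 48 h with 12-HETE at 100 nM, a lipid made from arachidonic acid by ALOX12, or with its vehicle, dilute DMSO. The replicates are described as independent experiments, while the labels do not say which mice or cultures each came from, and p-values measure the spread between these samples. The comparisons ask how HECs differ from BECs, what changes in each with a tumour, and what 12-HETE changes in tumour cells.

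Ephrins are membrane-bound ligands that signal to Eph receptor tyrosine kinases on the neighbouring cell, and the ephrin-bearing cell is signalled to in return. In developing vessels Efnb2 marks arterial endothelium and its receptor Ephb4 marks venous endothelium, and their contact helps keep the vessel types apart. Connexins form gap junction channels that couple neighbouring cells. Gja5 (connexin 40) and Gja4 (connexin 37) are known from arterial endothelium, and Gja1 (connexin 43) is the most widespread member of the family. Bmx is a kinase of the TEC family that is known as an arterial endothelial gene. High endothelial venules, the vessels through which lymphocytes enter lymph nodes, are postcapillary venules.

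Promoters of 5 members are shown because these genes carried the contrasts described further on: Gja1, Gja4 and Gja5 are connexins of 1 family with unlike levels, and Efnb2 and Ephb4 are a ligand and its receptor. Each stretch runs 5′ to 3′ from 250 bases before the RefSeq transcription start to 50 after it (GRCm38.p6). They lie at chr10:56377050-56377349 (plus strand) for Gja1, chr4:127313990-127314289 (minus) for Gja4, chr3:97032152-97032451 (plus) for Gja5, chr8:8661193-8661492 (minus) for Efnb2 and chr5:137349859-137350158 (plus) for Ephb4. Capitals mark matches to any of 5 short motifs on either strand: the GC box GGGCGG, the ETS core AGGAAG, the AP-1 site TGACTCA, the RBPJ core TGGGAA and the SOX core AACAAT.
Gja1: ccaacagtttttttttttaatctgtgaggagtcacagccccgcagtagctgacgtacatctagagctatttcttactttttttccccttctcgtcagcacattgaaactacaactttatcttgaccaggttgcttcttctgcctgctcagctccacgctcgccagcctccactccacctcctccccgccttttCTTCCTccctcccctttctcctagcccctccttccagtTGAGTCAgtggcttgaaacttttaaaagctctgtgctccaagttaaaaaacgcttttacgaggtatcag
Gja4: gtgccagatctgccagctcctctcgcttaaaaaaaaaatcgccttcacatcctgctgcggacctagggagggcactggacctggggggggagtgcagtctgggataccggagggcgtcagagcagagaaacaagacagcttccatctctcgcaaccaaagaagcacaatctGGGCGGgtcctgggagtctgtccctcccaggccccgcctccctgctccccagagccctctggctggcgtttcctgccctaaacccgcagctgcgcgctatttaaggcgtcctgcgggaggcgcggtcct
Gja5: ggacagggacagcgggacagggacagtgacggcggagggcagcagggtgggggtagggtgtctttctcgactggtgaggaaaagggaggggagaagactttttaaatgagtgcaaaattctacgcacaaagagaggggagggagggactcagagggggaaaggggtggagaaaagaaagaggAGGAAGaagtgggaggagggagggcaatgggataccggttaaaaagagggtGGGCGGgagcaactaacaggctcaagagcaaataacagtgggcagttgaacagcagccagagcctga
Efnb2: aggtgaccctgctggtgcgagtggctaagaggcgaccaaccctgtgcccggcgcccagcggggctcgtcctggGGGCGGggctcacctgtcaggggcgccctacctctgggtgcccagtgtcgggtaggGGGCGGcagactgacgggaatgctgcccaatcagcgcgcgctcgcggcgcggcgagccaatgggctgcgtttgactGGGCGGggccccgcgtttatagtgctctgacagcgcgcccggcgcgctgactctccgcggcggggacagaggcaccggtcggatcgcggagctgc
Ephb4: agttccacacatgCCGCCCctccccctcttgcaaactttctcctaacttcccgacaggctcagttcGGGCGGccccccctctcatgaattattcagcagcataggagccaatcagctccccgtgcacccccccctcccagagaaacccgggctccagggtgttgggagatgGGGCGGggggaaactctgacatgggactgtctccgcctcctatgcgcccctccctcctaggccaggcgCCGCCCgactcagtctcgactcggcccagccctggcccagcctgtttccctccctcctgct

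These promoters differed in composition, from 47.7% G and C in Gja1 to 72.3% in Efnb2, with 55.7% in Gja5, 62% in Gja4 and 64.7% in Ephb4. Efnb2 held 3 GC boxes and Ephb4 held 4, Gja4 and Gja5 held 1 each, and Gja1 held none. Gja1 and Gja5 each held 1 ETS core. The AP-1 site of Gja1, 19 bases before its start, was the only AP-1 match among the 10 members, against 5.2% of all 32851 promoters of the table. Over the members a GC box stood in 7, an ETS core in 4, an RBPJ core in 3 and a SOX core in 0, against 35.7%, 35.4%, 25.6% and 10.7% of all promoters. No marked matches overlap one another. A match is a stretch of letters and says nothing about binding.

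Total values per endothelial library ran from 56.4 to 79.4 M in units whose low values lie in steps of about 3.78, each taken as 1 fragment, and EO771 totals from 17.3 to 18.6 M counts. A normalised count is the deposited value divided by the size factor of its library, and levels of different genes are set side by side only as TPM (read density over exon length, scaled to the same total in each library). Values at or under 3 fragments per library (11.3 deposited endothelial units) were treated as not distinguishable from 0; this floor and the intervals given cover counting error only. Calls required an adjusted p under 0.05 (DESeq2 Wald test, Benjamini-Hochberg) together with a fold over 2, that is a log2 fold change over 1 in size. Pecam1 and Cdh5 were abundant in all 12 endothelial libraries (44000 ± 456 or more, SD, n = 3, for Cdh5). The tight junction gene Cldn5 was at 17771 ± 1864 in BEC normal and at 74.7 ± 56.1 or less in the other groups. The high endothelial list (Glycam1, Chst4, Fut7, Chst2, Gcnt1) summed to 975 to 1327 CPM (counts scaled to the library total) in HEC normal and 2221 to 3054 in HEC tumour, against 8.93 to 27.6 over the BEC libraries, although Chst2 was at 0 in all 6 HEC libraries.

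**Figure D1:**
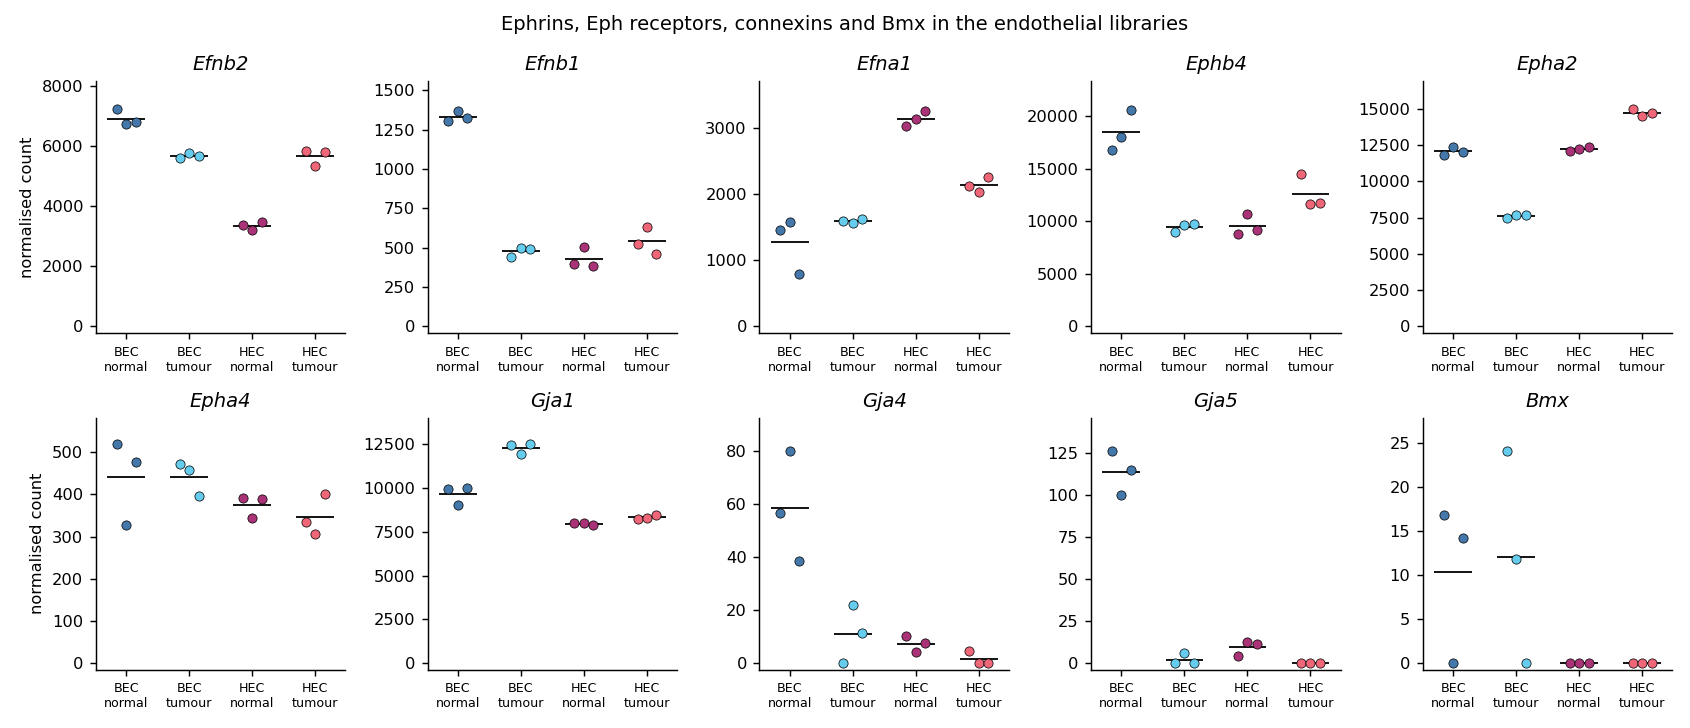
Normalised counts of the 10 members (y axis, linear from 0, a scale of its own in each panel) in the 4 endothelial groups; each point is 1 library and each line the mean of 3. Gja4 and Gja5 stand at 38.6 or more in the BEC normal libraries and at 22 or less in all others, Efnb2 is lowest in HEC normal, and Epha2 is lowest in BEC tumour.

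Among the ligands, Efnb2 and Efnb1 were lower in HECs than in BECs of mice without tumours and Efna1 was higher. Efnb2 was at 7222, 6723 and 6804 normalised counts in BEC normal and at 3370, 3204 and 3473 in HEC normal. The groups were far apart, and Efnb2 fell by 1.05 ± 0.06 on the log2 scale (SE, adjusted p = 6.37e-68). Efnb1, a B-type ephrin of the X chromosome, was at 1305, 1367 and 1324 in BEC normal and at 396, 505 and 382 in HEC normal, and fell by 1.64 ± 0.15 (adjusted p = 6.20e-26). Efna1, a lipid-anchored ligand that binds Epha2, was at 1455, 1578 and 789 in BEC normal, where replicate 3 stood low, and at 3031, 3135 and 3256 in HEC normal. Efna1 rose by 1.30 ± 0.20 (adjusted p = 5.27e-10), and its call held with any 1 of the 6 libraries left out, at 1.04 without BEC normal replicate 3.

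Of the receptors, Ephb4 differed by nearly as much as its ligand and the A-type receptors did not pass the test. Ephb4 was at 16740, 18048 and 20615 in BEC normal and at 8760, 10693 and 9116 in HEC normal. The difference, -0.96 ± 0.12 on the log2 scale (adjusted p = 2.45e-15), lay just under the fold threshold. Leaving out BEC normal replicate 1 (-1.03) or HEC normal replicate 2 (-1.04) brought it past the threshold. Epha2, a receptor with high levels in many epithelia and in activated endothelium, stood at 12078 ± 287 in BEC normal and 12211 ± 137 in HEC normal (log2 fold change 0.02 ± 0.04, adjusted p = 0.716). Epha4, a receptor that binds ephrins of both classes, ran from 328 to 519 in BEC normal and from 344 to 391 in HEC normal (-0.24 ± 0.20, adjusted p = 0.293).

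The connexins split by level. Gja1 was at 9926, 9049 and 10016 in BEC normal and at 7988, 8004 and 7862 in HEC normal, groups that did not overlap, with a log2 fold change of -0.28 ± 0.05 (adjusted p = 7.29e-08). Gja5 was at 126, 100 and 115 in BEC normal and at 4.06, 12.2 and 11.5 in HEC normal, the latter at or under the floor in summed fragments. In fragments, 91 stood against 7, a ratio of 13 (95% counting interval 6.08 to 33.3). Gja4 was at 56.4, 80 and 38.6 in BEC normal and at 10.1, 4.07 and 7.64 in HEC normal, 45 fragments against 6 and a ratio of 7.52 (3.20 to 21.6). HEC normal lay at or under the floor for both genes, so no exact fold is read from these ratios. Both fell by the test (Gja5 log2 -3.62 ± 0.98, adjusted p = 0.000522; Gja4 -3.00 ± 1.25, adjusted p = 0.0269), but they passed the minimum mean of 10 only through BEC normal and so had to differ somewhere. The call of Gja4 was lost with edgeR (adjusted p = 0.0528), with replicate number as a block (0.0636) and without any of 5 of the 6 libraries compared, the exception being HEC normal replicate 1. Exons of Gja5 overlap those of Gpr89 on the opposite strand over 165 bases and those of Ephb4 overlap Zan over 33 bases, and whether the counting used strand is not given in the sources used here, so their values are uncertain by what those partners add.

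Of the 10 members, 9 were fitted in HEC normal against BEC normal and 5 were called, Efna1 higher and Efnb2, Efnb1, Gja4 and Gja5 lower. The calls of Gja4 and Gja5 were partly fixed by the minimum mean and carry no weight in that count, and a minimum mean of 50, which removes both genes, left 3 calls. Over all 18446 genes tested 32.3% were called in either direction, so the members are read against a large background. Libraries did not overlap for 7 members, Gja4 and Gja5 among them, as for 66.7% of all fitted genes. Fewer cells of a type and less RNA per cell cannot be told apart in bulk RNA. Smooth muscle and pericyte markers summed to 854 to 882 CPM in BEC normal (Acta2 622) and 9.26 to 11.3 in HEC normal, and fibroblast markers to 217 to 225 against 17 to 19.6 CPM. All 6 genes of the first list and 5 of the 6 of the second, with Lum at 0, had reads in both groups. Myeloid markers went the other way, at 483 to 509 CPM in HEC normal (Cd68 488) against 107 to 128 in BEC normal. Of these 5 genes Cd68 was called higher in HEC normal and Csf1r lower. Their part in these differences was not tested.

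**Figure D2:**
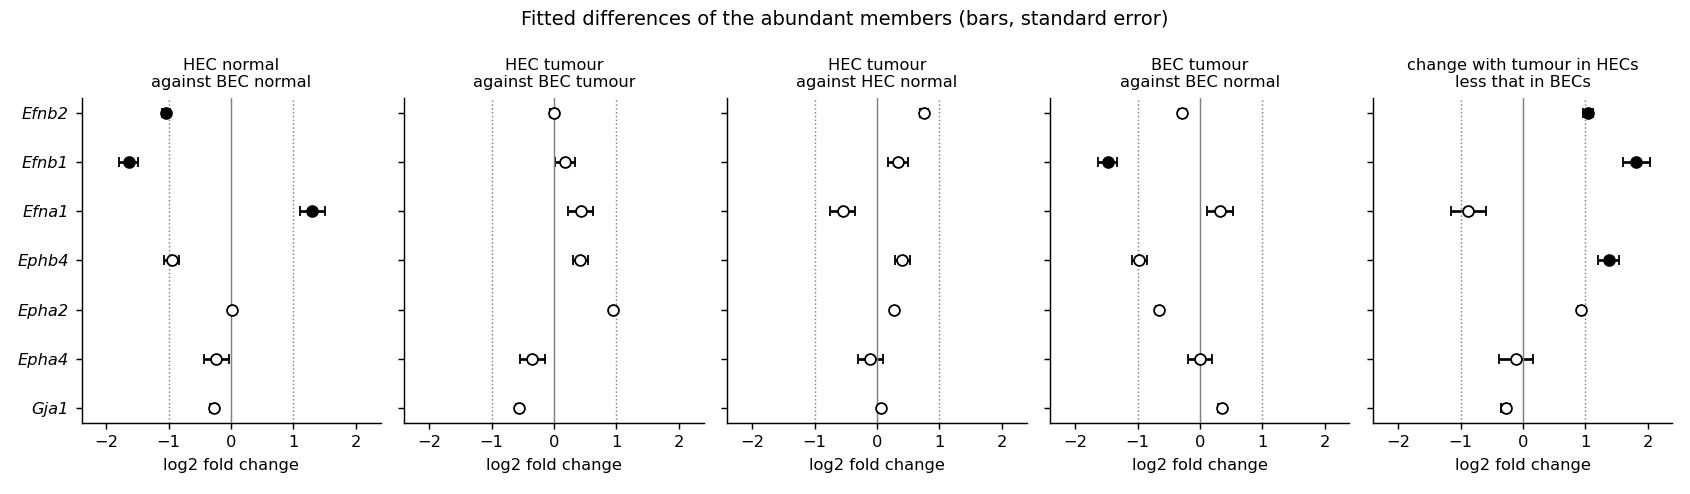
Log2 fold change (x axis) of the 7 members at 307 normalised counts or more in all 12 endothelial libraries, for the 4 group comparisons and the interaction; bars are the standard error, filled points were called and dotted lines mark a log2 fold change of 1 in size. Efnb2, Efnb1 and Ephb4 lie left of 0 in HEC normal against BEC normal and right of 0 in the interaction.

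With a tumour, Efnb2, Ephb4 and Epha2 were higher in HECs and Efna1 was lower, each by less than the fold threshold. Efnb2 was at 5836, 5337 and 5809 in HEC tumour, above all HEC normal libraries, and differed by 0.76 ± 0.06 on the log2 scale (adjusted p = 9.31e-35). The receptor Ephb4 was at 14519, 11676 and 11692, with replicate 1 highest, and differed by 0.41 ± 0.12 (adjusted p = 0.00244). Epha2 was at 14995, 14484 and 14715 against 12062 to 12332 in HEC normal (0.27 ± 0.04, adjusted p = 8.73e-13). Efna1, which binds it, was at 2125, 2038 and 2261, below every HEC normal library (-0.55 ± 0.20, adjusted p = 0.0207).

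Efnb1 ran from 462 to 632 in HEC tumour and overlapped HEC normal (0.34 ± 0.16, adjusted p = 0.079). Epha4 ran from 307 to 401 (-0.11 ± 0.20, adjusted p = 0.729). Gja1 was at 8252, 8316 and 8463, without overlap but with an adjusted p of 0.304 (0.07 ± 0.05). Gja5 was at 0 in all 3 HEC tumour libraries and Gja4 at 4.62, 0 and 0, so that both groups lay at or under the floor and no fold is given. Gja5 was still the only member called of the 10 (adjusted p = 0.00145), beside 7.82% of all genes tested, and was not called in a test against a log2 fold change of 1, nor fitted when only those 2 groups entered, where its mean fell under 10. Leaving out HEC tumour replicate 1, the library with the only Gja4 reads, added Gja4. Libraries did not overlap for 6 members, as for 48.8% of all fitted genes.

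In BECs the changes of Efnb2, Ephb4 and Epha2 with a tumour had the opposite sign. Efnb1 was at 442, 501 and 488 in BEC tumour, below 1305 in every BEC normal library, and fell by 1.48 ± 0.15 (adjusted p = 1.77e-21). Ephb4 was at 8951, 9619 and 9705 against 16740 to 20615 (-0.97 ± 0.12, adjusted p = 1.28e-15), again just under the fold threshold, which it passed without BEC normal replicate 1 (-1.04). Epha2 was at 7455, 7698 and 7695, the lowest of the 4 groups (-0.66 ± 0.04, adjusted p = 1.83e-73). Efnb2 was at 5614, 5775 and 5655 (-0.28 ± 0.06, adjusted p = 4.77e-06). Against these lower levels stood Gja1, which was at 12434, 11951 and 12513, above every other endothelial library (0.35 ± 0.05, adjusted p = 2.31e-11).

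Gja5, at 100 to 126 in BEC normal, was at 0, 5.92 and 0 in BEC tumour. With 91 fragments against 2, the ratio of BEC normal to BEC tumour was 50.8 with a counting interval of 13.7 to 425. BEC tumour lay under the floor, so no exact fold is read from it. Gja5 was called (adjusted p = 4.52e-07), also in every alternative that fitted it, while a minimum mean of 50 removed it. It passed the minimum mean only through BEC normal, so its direction was fixed and the call carries no weight. Gja4 was at 0, 22 and 11.3 in BEC tumour, a ratio of 5.02 (2.49 to 11.2) that did not pass the main test (adjusted p = 0.0896); it was called with other size factors (TMM, 0.0474), with values divided by their step (0.0266) or without BEC tumour replicate 2 (0.0395). Efna1 stood at 1566 to 1626 (0.32 ± 0.20, adjusted p = 0.173) and Epha4 at 397 to 472 (0.0007 ± 0.20, adjusted p = 0.998), both overlapping BEC normal.

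Calls in BEC tumour against BEC normal covered 2 of the 10 members, Efnb1 and Gja5, both lower, beside 23.3% of all genes tested. Gja5 passed the minimum mean only through BEC normal, so its direction was fixed, and a minimum mean of 50 left the call of Efnb1 alone. Libraries did not overlap for 7 members, Gja4 and Gja5 among them, and for 59.5% of all fitted genes. BEC tumour carried more reads of other cell types: myeloid markers summed to 1456 to 1948 CPM with all 5 genes present (Cd68 highest, 889), against 107 to 128 in BEC normal, and epithelial markers to 8.98 to 77.6 with all 6 present, against 1.51 to 2.94 with Krt5 and Krt14 at 0. Smooth muscle and pericyte markers summed to 67.2 to 106 CPM, against 854 to 882. Their part in the member differences was not tested.

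Between the tumour groups Epha2 and Ephb4 were higher in HECs, Gja1 was lower and Efnb2 did not pass the test. Efnb2 stood at 5660 ± 281 in HEC tumour and 5681 ± 84.1 in BEC tumour (SD, n = 3), a log2 fold change of -0.01 ± 0.06 (adjusted p = 0.945). Epha2 showed the widest gap of the abundant members, 14484 to 14995 against 7455 to 7698, with 0.95 ± 0.04 (adjusted p = 1.77e-150), just under the fold threshold. Ephb4 was higher in HEC tumour by 0.42 ± 0.12 (adjusted p = 0.00091), and Gja1 lower by 0.56 ± 0.05, at 8252 to 8463 against 11951 to 12513 (adjusted p = 1.22e-27). Efnb1 (0.18 ± 0.15, adjusted p = 0.34), Efna1 (0.43 ± 0.20, 0.063) and Epha4 (-0.35 ± 0.20, 0.126) did not pass. With DESeq2, 0 of the 10 members were called here, beside 22% of all genes tested, while 6 had an unadjusted p under 0.05; edgeR also called 0. Gja4 and Gja5 were called with TMM size factors and in some fits that left out 1 library (without BEC tumour replicate 1, both; without BEC tumour replicate 3, Gja5; without HEC tumour replicate 1, Gja4), and most of their libraries lay at or near the floor.

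The change with a tumour differed between HECs and BECs for Efnb2, Efnb1 and Ephb4. In BECs this change is also one of tissue, from fat pad to tumour, while both HEC groups came from lymph nodes. The interaction, the change in HECs less that in BECs, was 1.82 ± 0.22 for Efnb1 (adjusted p = 7.35e-16), 1.38 ± 0.17 for Ephb4 (adjusted p = 1.47e-15) and 1.04 ± 0.08 for Efnb2 (adjusted p = 5.13e-34). For Efnb2 this was a higher level in HECs beside a lower level in BECs. With edgeR or with TMM size factors the Efnb2 value was 0.98, which stays past the adjusted p but not past the fold threshold. Under that threshold lay Epha2 (0.94 ± 0.05, adjusted p = 2.42e-73), Efna1 (-0.88 ± 0.29, adjusted p = 0.00622) and Gja1 (-0.28 ± 0.07, adjusted p = 0.000335); Efna1 passed it without BEC normal replicate 2 (-1.05). The 3 calls stand beside 23.3% of all genes tested, and the comparison shares its libraries with the group comparisons above.

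Ordered by level, Efnb2 ran from BEC normal over BEC tumour and HEC tumour, which overlapped, to HEC normal. Ephb4 ran from BEC normal over HEC tumour to HEC normal and BEC tumour, which overlapped. Epha2 ran from HEC tumour over HEC normal and BEC normal, which overlapped, to BEC tumour, and Gja1 from BEC tumour over BEC normal and HEC tumour to HEC normal, each group apart from the next, although the last step had an adjusted p of 0.304. Efna1 ran from HEC normal over HEC tumour to BEC tumour and BEC normal, which overlapped, and Efnb1 was high in BEC normal with the other groups overlapping.

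Per length, Ephb4 stood above its ligand in every endothelial library. Efnb2 was at 17.9 ± 0.83 TPM (SD, n = 3) in HEC normal and 33.2 ± 1.77 in HEC tumour, beside 37.9 ± 2.45 in BEC normal and 33.1 ± 0.88 in BEC tumour. For Ephb4 the same 4 groups gave 75.3 ± 7.54, 109 ± 13.5, 149 ± 14.4 and 81 ± 2.81. The log2 ratio of Efnb2 to Ephb4 (TPM, pseudocount 0.5) was -1.76, -1.97 and -2.15 in BEC normal and -1.91, -2.27 and -1.93 in HEC normal, with means of -1.96 ± 0.19 and -2.04 ± 0.20 that differed by less than their spread. It was -1.22, -1.29 and -1.33 in BEC tumour (-1.28 ± 0.05), above all other endothelial libraries, and -1.86, -1.68 and -1.56 in HEC tumour (-1.70 ± 0.15). These ratios are a description of RNA levels and got no test.

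**Figure D3:**
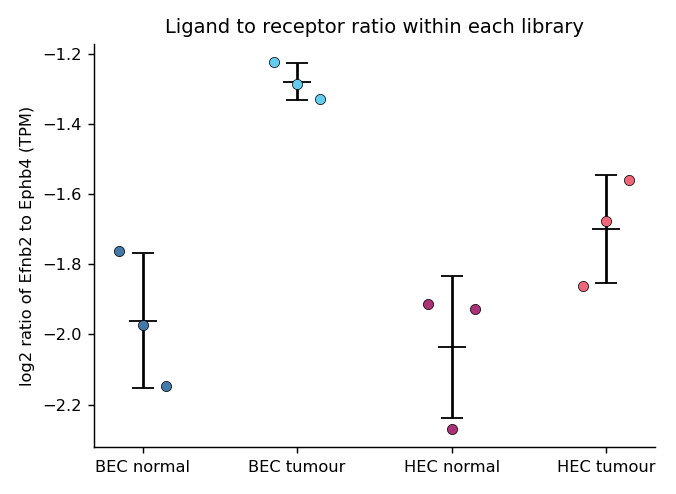
Log2 ratio of Efnb2 to Ephb4 within each endothelial library (y axis, from TPM; the axis does not start at 0); points are libraries, and bars the mean and SD of 3. The BEC tumour libraries, at -1.33 to -1.22, sit above all others, and BEC normal and HEC normal overlap.

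Among the connexins Gja1 held most of the RNA outside BEC normal. All 20 connexin genes summed to 97.2 ± 2.46 TPM in BEC normal and 62.8 ± 2.14 in BEC tumour, and to 40.8 ± 1.00 TPM in HEC normal and 48.1 ± 0.67 in HEC tumour. Of that sum Gja1 made up 36.4% ± 2.2 (SD, n = 3) in BEC normal and 76.3% ± 3.32 in BEC tumour, then 69.7% ± 1.12 in HEC normal and 68.1% ± 2.51 in HEC tumour. The share depends on the length given to Gja1, whose merged exons cover 10257 bases and whose longest transcript covers 3889. With longest transcripts throughout it was 55.5%, 86.7%, 81.4% and 80.6% for these 4 groups in turn.

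Gjc1 (connexin 45) made up 24.9% ± 1.23 of the sum in HEC normal, 23.7% ± 0.58 in HEC tumour, 25.4% ± 1.32 in BEC normal and 15.1% ± 0.47 in BEC tumour. The arterial connexins were small parts everywhere: Gja4 held 1.34% ± 0.47 and Gja5 0.76% ± 0.09 in BEC normal.

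**Figure D4:**
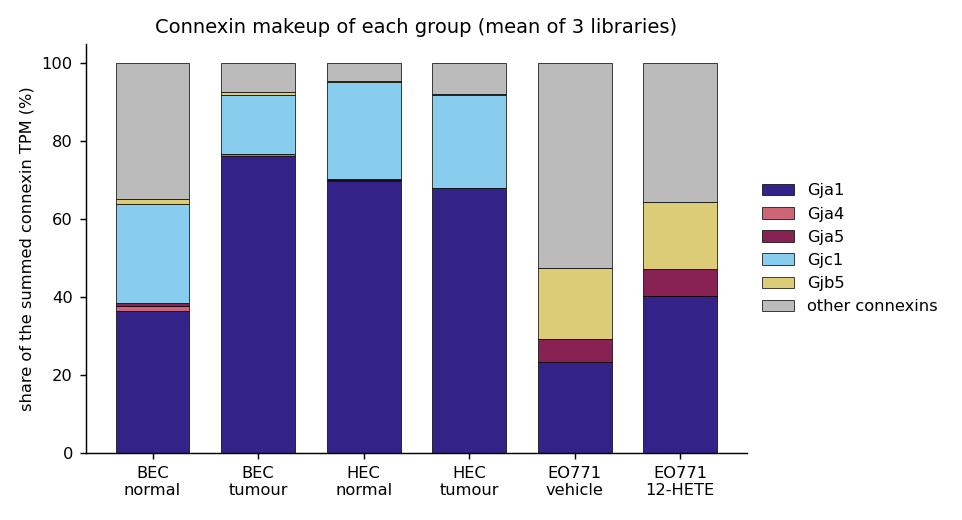
Share of each connexin in the summed TPM of 20 connexin genes (y axis, %), as the mean of 3 libraries in each of 6 groups, with the connexins not named pooled in grey. Gja1 takes 36.4% in BEC normal and 68.1% to 76.3% in the other endothelial groups, and 23.4% in EO771 vehicle.

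Bmx was at 16.8, 0 and 14.2 in BEC normal, at 24.1, 11.8 and 0 in BEC tumour and at 0 in all 6 HEC libraries. Its mean lay under 10 over the table, so it was not fitted. Summed over 3 libraries, BEC tumour held 11 Bmx fragments and BEC normal 9, where a floor of 3 for each library makes 9, so BEC normal lay at the floor. Of the other TEC kinases, Btk, a gene of B cells and myeloid cells, was at 181 ± 61.3 in BEC tumour and 6.02 ± 2.16 or less elsewhere, beside the myeloid markers given above. It was called higher in BEC tumour against BEC normal (5.38 ± 0.85, adjusted p = 1.05e-09). Btk passed the minimum mean only through BEC tumour, so its direction was fixed and the call carries no weight.

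The rest of the ephrin family did not move as a block. Of the other 5 ephrins, 3 rose and 1 fell in HEC normal against BEC normal: Efna5 (2.68 ± 0.13), Efna3 (1.12 ± 0.13) and Efnb3 (1.09 ± 0.17) rose and Efna2 fell by 3.45 ± 0.40, with adjusted p of 6.86e-10 or less. In BEC tumour against BEC normal Efna5 rose by 2.57 ± 0.12 and Efna2 and Efna4 fell by 2.49 ± 0.38 and 1.23 ± 0.31. Efna5 thus stood at 445 ± 76.6 normalised counts in BEC normal and at 2650 ± 148, 2863 ± 242 and 2544 ± 140 in BEC tumour, HEC normal and HEC tumour. In HEC tumour against HEC normal Efnb3 rose by 1.04 ± 0.16, while Efna3 and Efna4 fell by 1.56 ± 0.13 and 1.35 ± 0.31. Between the tumour groups only Efnb3 of the 5 was called, 1.66 ± 0.16 higher in HECs. Of all genes tested, 32.3% were called in HEC normal against BEC normal and 23.3% in BEC tumour against BEC normal. In HEC tumour against HEC normal the share was 7.82%, and between the tumour groups 22%.

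Of the other 11 Eph receptors, 7 were fitted, and 4 rose and 3 fell in HEC normal against BEC normal, beside 32.3% of all genes tested. Ephb1, which fell, passed the minimum mean only through BEC normal, and another receptor, which rose, passed it only through HECs. The direction of both was fixed and their calls carry no weight. Ephb6, which lacks kinase activity, rose by 2.53 ± 0.15, Ephb2 by 2.42 ± 0.21 and Epha7 by 4.19 ± 0.37. Ephb3 fell by 2.77 ± 0.20, and Ephb1 was at 130 ± 25.1 in BEC normal and at 0 in all 6 HEC libraries. Epha1 also fell, by 1.50 ± 0.45. In BECs of tumours Ephb6 (2.67 ± 0.15), Ephb2 (2.00 ± 0.21) and Epha7 (3.43 ± 0.37) rose against BEC normal and Ephb3 fell by 2.18 ± 0.20, with Ephb1 at 0 in 2 of 3 libraries. In HECs of tumours Ephb2 and Epha7 fell by 1.68 ± 0.20 and 1.43 ± 0.35 against HEC normal. All of these receptors were low per length: Ephb6 reached 10.8 ± 0.38 TPM in BEC tumour, against 65 ± 1.16 for Epha2 and 81 ± 2.81 for Ephb4 in the same libraries.

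Of 20 other connexins and pannexins, the latter forming large-pore channels, 8 were fitted. In HEC normal against BEC normal 5 fell and 0 rose, beside 32.3% of all genes tested in either direction. Gjc1 fell by 1.25 ± 0.08 (adjusted p = 3.75e-55), and Panx1, which releases ATP from cells, was at 1113 ± 139 against 0. In BEC tumour against BEC normal 4 fell, among them Gjc1 by 1.47 ± 0.08 and Panx1 by 1.87 ± 0.19, beside 23.3% of all genes tested in either direction. Gjb2 was called higher, at 65.5 ± 29.6 normalised counts in BEC tumour against 1.47 ± 2.55. It passed the minimum mean only through BEC tumour, so its direction was fixed and its call carries no weight. In HEC tumour against HEC normal only Panx1 was called, at 0, 0 and 6.64 against 0, values at the floor, beside 7.82% of all genes tested. Between the tumour groups 2 fell, Panx1 among them, and 2 rose, Gja6 among them, beside 22% of all genes tested. Gja6 lay near the floor, at 3.02 ± 2.81 normalised counts in BEC tumour and 17.7 ± 11.4 in HEC tumour, where the lowest library had 5.92. It passed the minimum mean only with HEC tumour included, so its call carries no weight. The median log2 fold change of the fitted genes was -2.19 in HEC normal and -1.67 in BEC tumour, each against BEC normal, beside 0.0046 and 0.0083 over all fitted genes.

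Eph signalling partners, 18 genes of adaptors, guanine nucleotide exchange factors, the sheddase Adam10 and phosphatases, were all fitted. In HEC normal against BEC normal 3 rose and 2 fell, beside 32.3% of all genes tested in either direction, a share not exceeded here. Ngef, the exchange factor ephexin that acts downstream of EphA receptors, rose by 2.86 ± 0.18 and Vav3 by 1.49 ± 0.17. The adaptor Grb10 fell by 6.65 ± 0.18 and Vav2 by 1.22 ± 0.09. Grip1 also rose (3.38 ± 1.00), but from 2.35 ± 4.07 normalised counts in BEC normal, under the floor, to 26.1 ± 13.6 in HEC normal. Grb10 went from 11661 ± 1022 normalised counts in BEC normal to 116 ± 6.15 in HEC normal and 234 ± 61.8 in BEC tumour. Ngef was at 2039 ± 54.9 in HEC normal, 802 ± 115 in HEC tumour, 282 ± 44.3 in BEC normal and 38 ± 11.6 in BEC tumour.

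Arterial markers mostly fell in the comparisons with BEC normal, which share those 3 libraries. Of 16 listed genes 15 were fitted, and in HEC normal against BEC normal 11 fell and 0 rose, beside 32.3% of all genes tested in either direction. The transcription factor Sox17 was at 635 ± 185 in BEC normal and under 10 on average in the other groups, 9.07 ± 8.89 at most. Sox17 and Stmn2 passed the minimum mean only through BEC normal. Their direction against BEC normal was fixed, and their calls carry no weight in the counts of HEC normal and BEC tumour against it. Dll4, a Notch ligand, fell by 2.30 ± 0.22, and the netrin receptor Unc5b fell by 4.48 ± 0.13. In BEC tumour against BEC normal 10 fell and Mgp rose (1.25 ± 0.52), with Dll4 falling by 4.41 ± 0.24, beside 23.3% of all genes tested. Between the tumour groups, a comparison without the BEC normal libraries, 8 were lower in HECs and Dll4 was higher (1.87 ± 0.25), beside 22% of all genes tested. Those lower included Unc5b (-2.10 ± 0.13), Nrp1 (-2.81 ± 0.21) and Mgp (-6.28 ± 0.57). In HEC tumour against HEC normal Fbln5 rose (1.59 ± 0.33) and Clu fell by 1.16 ± 0.26. Vegfc was called as well, but at 2.7 ± 4.68 in HEC normal and 0 in HEC tumour both groups lay under the floor. Unlike Gja4 and Gja5, the arterial ligand Efnb2 stayed abundant in all groups, at 3204 or more in every library.

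Of 13 listed venous markers 11 were fitted, and 2 fell in HEC normal against BEC normal, beside 32.3% of all genes tested in either direction. These were the clotting factor gene Vwf, by 2.51 ± 0.18, and Selp, which encodes P-selectin, by 1.32 ± 0.04. Vwf (by 1.99 ± 0.18) and Nr2f2, the venous transcription factor (by 1.08 ± 0.16), fell in BEC tumour. In HEC tumour Vwf rose by 1.24 ± 0.19 against HEC normal, and against BEC tumour Nr2f2 was 1.20 ± 0.16 higher and Il1r1, an interleukin receptor gene, lower (-1.09 ± 0.10). Among these, Nr2f2 was at 3743 ± 432 normalised counts in HEC normal, 5703 ± 995 in HEC tumour, 5244 ± 234 in BEC normal and 2474 ± 474 in BEC tumour. The median log2 fold change of the fitted venous genes was -0.38 in HEC normal against BEC normal, and that of the arterial genes -3.41, beside 0.0046 over all fitted genes; the arterial genes Sox17 and Stmn2 passed the minimum mean only through BEC normal, and the difference between the lists was not tested.

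Genes with the endothelial profile closest to a member were ranked over the 12 libraries by root mean square difference of centred log2 normalised counts, among 13290 genes. Closest to Efnb2 were Zfp207 (0.07) and Ngly1 (0.08), and closest to Ephb4 were Slc20a2 (0.10) and Gnl2 (0.12). Those closest to Gja1 were St3gal2 (0.06) and Itfg1 (0.07). No gene came near the profiles of the sparse connexins, with Tspyl3 (1.13) nearest to Gja4 and Tnik (1.20) nearest to Gja5.

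In cultured EO771 cells given 12-HETE, Efna1 fell, and Efnb1 and Gja1 were higher by less than the fold threshold. Efna1 was at 478, 602 and 283 with vehicle and at 187, 155 and 171 with 12-HETE, and fell by 1.41 ± 0.26 on the log2 scale (adjusted p = 4.63e-07). The vehicle libraries spread widely and lay above all treated ones. Efnb1 was at 590, 550 and 504 with vehicle and at 744, 763 and 775 with 12-HETE (0.47 ± 0.11, adjusted p = 0.00011). Gja1 was at 1614, 1450 and 1695 against 2354, 2255 and 2249 (0.53 ± 0.10, adjusted p = 5.48e-07), also without overlap.

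Epha2, the receptor for Efna1, was at 14374, 10903 and 13490 with vehicle and at 10239, 10572 and 10483 with 12-HETE (-0.31 ± 0.12, adjusted p = 0.0244, and from 0.098 to 0.157 without vehicle replicate 1 or any 1 of the 12-HETE libraries). Vehicle replicate 2 stood close to the treated libraries for this gene and highest for Efna1. Ephb4 ran from 1984 to 2368 with vehicle and from 2229 to 2316 with 12-HETE (0.04 ± 0.10, adjusted p = 0.749), and Gja5 from 188 to 302 and from 203 to 236 (-0.08 ± 0.21, adjusted p = 0.777). Of the 10 members 6 were fitted and 1, Efna1, was called, beside 10.2% of the 11602 genes tested. Libraries did not overlap for 5 members, as for 60.7% of all fitted genes.

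**Figure D5:**
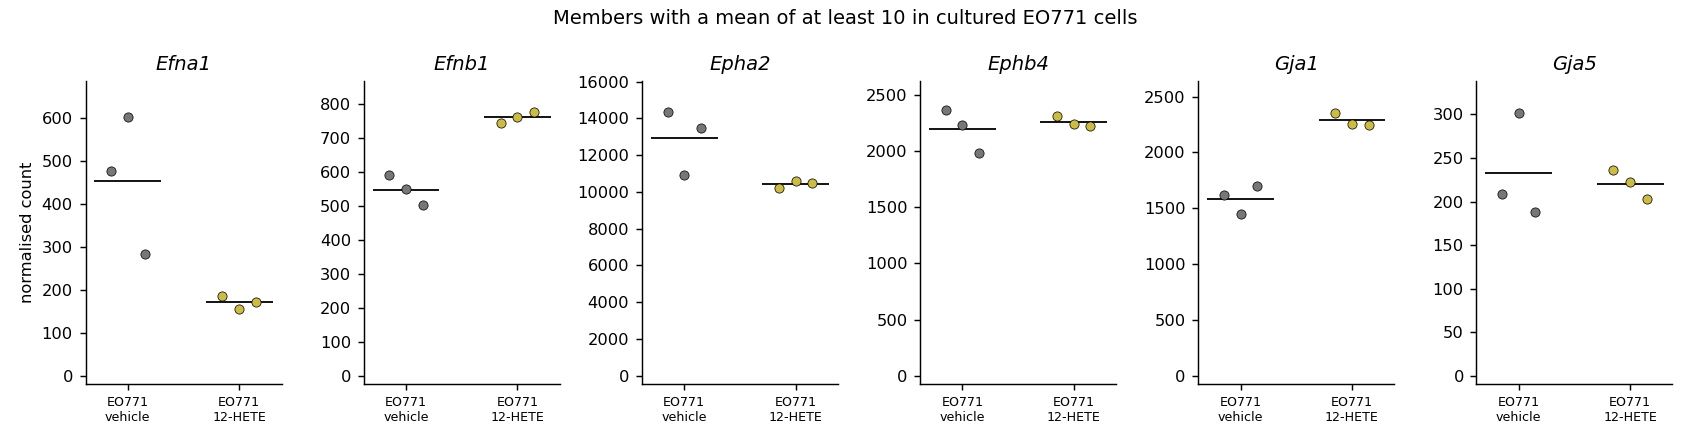
Normalised counts (y axis, linear from 0, a scale of its own in each panel) of the 6 members fitted in EO771 cells; points are libraries with vehicle or 12-HETE and lines the mean of 3. The 12-HETE libraries sit below all vehicle libraries for Efna1 and Epha2 and above them for Efnb1 and Gja1, and overlap them for Ephb4 and Gja5.

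The other members were near or at 0. Efnb2 was at 1.98, 3.82 and 2.05 with vehicle and at 3.08, 3.94 and 4.92 with 12-HETE, 8 counts against 12 and a ratio of 1.48 (0.556 to 4.17). Epha4 was at 0 in the 3 vehicle libraries and at 5.13, 5.91 and 2.95 with 12-HETE, 14 counts in all, with the last of these libraries at the floor of 3 counts, so no fold is given. Fitted with no minimum mean Epha4 was called. Gja4 reached 1 count in 2 vehicle libraries and Bmx was at 0 throughout.

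EO771 cells thus held the receptor Ephb4 (89.7 ± 5.4 TPM with vehicle) with little of its ligand Efnb2 (0.07 ± 0.03 TPM), and Epha2 at 526 ± 81.5 TPM. Levels of the cultured and sorted cells come from separately processed tables and are not compared by a test. Of the summed connexin TPM Gja1 made up 23.4% ± 4.37 with vehicle and 40.2% ± 1.21 with 12-HETE. Gja5 held 5.98% ± 0.82 and 6.93% ± 0.43. Among the signalling partners Ngef fell by 1.30 ± 0.17 (adjusted p = 6.84e-13) and the lipid phosphatase gene Inpp5d by 2.07 ± 0.55. Epithelial markers summed to 2868 to 3785 CPM with vehicle and 1930 to 1986 with 12-HETE, all 6 present, and fibroblast markers, mostly Dcn, to 390 to 613 and 998 to 1037; their part in the member differences was not tested.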

How the data were processed

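Endothelial values are estimated counts per Ensembl gene that the authors deposited after alignment to GRCm38.91 with STAR v2.6.0c and counting of fragments with featureCounts v1.6.2. They were treated as estimated because their low values lie in steps of 3.74 to 3.79 per library (searched between 3 and 5). For EO771 cells the authors deposited raw counts per gene symbol. Labels and methods name different library kits, and whether counting used strand is not given in the sources used here.

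Lines with a mean of at least 10 over the libraries of their table were fitted with DESeq2 1.42.0 in R 4.3.3 (default Wald test, two-sided, Benjamini-Hochberg over all genes tested), in 1 fit of 12 endothelial and 1 of 6 EO771 libraries with group as the only term. edgeR 4.0.16 (quasi-likelihood, TMM) was an alternative. The code was tested on simulated data. TPM used merged exon lengths from GENCODE vM21 (GRCm38), and promoters come from RefSeq. Ratios and shares got no test. Ratios of sparse genes carry conditional binomial 95% intervals.

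All 10 members are named in each comparison. From the other lists up to 3 called genes per direction are named, in most cases those with the largest Wald statistic in size. The arterial list departs from this. There, in HEC normal against BEC normal, Fbln5 and Jag1 had larger statistics in size than the named Dll4 and Sox17. Members and lists were chosen with earlier results of these data known. The genes with the nearest profile were the 2 with the smallest difference for each of 5 members, among genes with a mean normalised count of at least 100. Same-numbered EO771 libraries deviated together (correlations 0.111 to 0.328 in all 3 pairs), with no label to say what they share. The EO771 p-values given nevertheless come from fits with group as the only term, which leave this out. Replicate number entered as a block only in an alternative. The other alternatives were no minimum mean or one of 50, TMM size factors, other call rules, only the groups compared, values divided by their step, and each replicate left out. Of the other connexins, 3 counted in the list and in the connexin sum are not reported here by name.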

Additional observations from a re-analysis of the deposited data

Results flagged for a closer look

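In 3 members the change with a tumour differed between HECs and BECs by the test of the interaction itself (DESeq2). The difference was 1.82 ± 0.22 on the log2 scale for Efnb1 (adjusted p = 7.35e-16), which was lower in all 3 BEC tumour libraries than in any BEC normal library and overlapped between HEC groups. It was 1.38 ± 0.17 for Ephb4 (adjusted p = 1.47e-15), lower in 3 of 3 BEC tumour libraries and higher in 3 of 3 HEC tumour libraries than in any normal library of the same cell type. For Efnb2 it was 1.04 ± 0.08 (adjusted p = 5.13e-34), with the same pattern of libraries, and 0.98 with TMM scaling. In BECs, tissue (fat pad or tumour) and tumour cannot be told apart in these differences. No formal test for an outlying library was run, since the one used here needs 4 or more samples a group; the effect of leaving out single libraries is given with the other alternatives.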

How the results depend on the processing

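Members called numbered 5 between the normal groups, 0 between the tumour groups, 1 with a tumour in HECs, 2 with a tumour in BECs, 3 in the interaction and 1 in EO771. A minimum mean of 50 gave, in that order, 3, 0, 0, 1, 3 and 1, since it removes Gja4 and Gja5. A test against a log2 fold change of 1 gave 2, 0, 0, 2, 1 and 0, and adjusted p alone 7, 3, 5, 6, 6 and 4. TMM size factors gave 2 in HEC tumour against BEC tumour, fitting only the groups compared gave 0 in HEC tumour against HEC normal, and no filter gave 2 in EO771. Leaving out each replicate gave 4 to 5, 0 to 2, 1 to 2, 2 to 3, 3 to 4 and 1. Where no construction is named, the cause was not tested.

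With replicate number as a block the counts were 4, 0, 1, 2, 3 and 1. The block ended the call of Gja4 in HEC normal against BEC normal (adjusted p = 0.0636) and changed no other call. Same-numbered endothelial libraries shared only a number: the correlations of their deviations ran from -0.028 to 0.126, over 0.1 in 1 of 18 pairs.

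Signs turned only where the main value was not called. Efnb2 in HEC tumour against BEC tumour was 0.015 with a minimum mean of 50 and -0.026 to 0.035 without single replicates. Epha4 in BEC tumour against BEC normal was -0.0067 with values divided by their step and -0.18 to 0.13 without single replicates. Epha2 in HEC normal against BEC normal ran from -0.0035 to 0.030 and Gja5 in HEC tumour against BEC tumour from -3.93 to 0. In the interaction Gja4 was -0.32 with the replicate block and -2.86 to 1.08 without single replicates, Gja5 -0.57 with edgeR and -0.31 to 3.88, and Epha4 -0.24 to 0.069. In EO771 Ephb4 ran from -0.024 to 0.098 and Gja5 from -0.21 to 0.15.

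With longest transcripts as length, the Gja1 share was 55.5%, 86.7%, 81.4%, 80.6%, 43.3% and 62.5% in BEC normal, BEC tumour, HEC normal, HEC tumour, EO771 vehicle and EO771 12-HETE. A pseudocount of 1 moved the log2 ratio of Efnb2 to Ephb4 in EO771 from -7.30 to -6.40 with vehicle and from -7.22 to -6.37 with 12-HETE, since Efnb2 is near 0 there. Of the results per member and setting, 638 kept direction and side of the threshold, 21 turned sign, 14 came past the threshold and 9 fell short of it. Depth limits Gja4, Gja5 and Bmx, which stand at or under the floor of 3 fragments in most endothelial libraries. In EO771 cells this holds for Gja4 and Bmx but not for Gja5.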
